A study of Mus musculus with 27 samples.

Results

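The set described here holds 102 of 12422 probe sets measured in forskolin-pulsed NIH/3T3, a long-established fibroblast line grown from mouse embryos. They were chosen by their own values: a mean level of at least 7.5 at 6 h, at least 0.5 above 0 h and at least 0.5 above the average of 18, 24 and 30 h. In addition, the 6 h value had to lie above both references in each of the 3 experiments. Levels are log2(intensity + 12), on which a difference of 1 is a 2-fold change for a bright probe set and more than that for a dim one. The 0, 6, 18, 24 and 30 h values are therefore given as a description without a test. The 12 h and the 36, 42 and 48 h values were not used in the choice and were tested.

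RNA was measured on 27 Affymetrix mouse U74v2 arrays, 1 for each of 9 times in 3 experiments, labelled as biological replicates. All cultures received 15 µM forskolin for 2 h without serum, were rinsed, and stayed serum-free until harvest at 0 h (directly after the pulse) or at 6 h steps up to 48 h. All groups share the drug and the serum-free medium, and unpulsed cultures were not analysed here, so the values show change after the pulse and not the effect of the drug against its absence. Of the members, 96 carried 1 gene symbol and stood for 95 genes, with Klf10 measured by a pair of probe sets, 3 carried several symbols and 3 none.

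Forskolin activates adenylyl cyclase. The cyclic AMP that results activates protein kinase A, which phosphorylates the transcription factor CREB, and the immediate early genes that follow are known for peaking and fading soon after a stimulus. Cultured fibroblasts left without serum withdraw from the cell cycle, and a forskolin pulse is also a common way to align the circadian clocks of such cells.

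As means over all arrays, 9 of 10 fibroblast markers stood between 8.81 (Pdgfrb) and 14.52 (Col1a2), and Vim was at 7.22. The markers of other cell types were not uniformly dim. Of 6 for macrophages and blood, Ptprc (4.49), Lyz2 (4.20) and Adgre1 (4.93) were low and Csf1r (7.59), Cd68 (8.05) and Cd14 (9.78) were not. Of 4 for epithelium, Epcam (4.34), Krt8 (5.10) and Krt18 (5.76) were low and Cdh1 (9.0) was not, and of 3 for endothelium, Cdh5 (4.76) was the lowest and Kdr (7.14) the highest. Array medians ran from 166.8 to 200.65 intensity units. The ratio of 3′ to 5′ actin controls, a check of RNA quality, was 1.15 to 1.61 at 12 h and 1.11 to 1.73 at 36 to 48 h. The 12 h arrays of experiments 1 and 3 were described in wording unlike that of the other arrays, and calls at 12 h are also given from the 12 h array of experiment 2 alone.

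As a check on what the members' upstream sequences hold, promoter windows from 250 bases before to 50 after the start site were taken from RefSeq (GRCm38.p6). They were found for 75 of the 95 genes, in 116 windows, and 4 are shown for members described below. Gbp2 (chr3:142620413-142620712, plus strand), an interferon-induced GTPase, and Mgst2 (chr3:51660929-51661228, plus strand), a microsomal glutathione S-transferase, are shown as high members with several matches. Psmb9 (chr17:34187281-34187580, minus strand), a catalytic subunit of the immunoproteasome, and Kif23 (chr9:61946750-61947049, minus strand), a kinesin of the dividing cell's midzone, are shown as members with 1 match each. Capitals mark motif matches on either strand.
Gbp2: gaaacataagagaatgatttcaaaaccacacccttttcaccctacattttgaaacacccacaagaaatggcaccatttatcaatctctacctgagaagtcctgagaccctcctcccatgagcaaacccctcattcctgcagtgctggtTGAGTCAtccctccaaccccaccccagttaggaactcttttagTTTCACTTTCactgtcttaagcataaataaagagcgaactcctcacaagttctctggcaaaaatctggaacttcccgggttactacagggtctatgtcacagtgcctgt
Mgst2: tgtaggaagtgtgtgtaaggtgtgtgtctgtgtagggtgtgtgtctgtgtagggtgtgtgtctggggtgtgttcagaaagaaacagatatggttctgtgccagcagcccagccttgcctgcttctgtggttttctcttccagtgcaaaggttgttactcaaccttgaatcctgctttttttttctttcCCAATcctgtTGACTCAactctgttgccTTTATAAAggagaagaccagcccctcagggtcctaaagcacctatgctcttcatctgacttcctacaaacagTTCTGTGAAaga
Psmb9: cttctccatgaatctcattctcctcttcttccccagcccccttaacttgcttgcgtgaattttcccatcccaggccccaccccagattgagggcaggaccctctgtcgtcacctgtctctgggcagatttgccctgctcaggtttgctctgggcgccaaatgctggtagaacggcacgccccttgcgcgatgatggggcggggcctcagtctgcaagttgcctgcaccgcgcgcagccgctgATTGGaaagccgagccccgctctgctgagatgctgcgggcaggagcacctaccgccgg
Kif23: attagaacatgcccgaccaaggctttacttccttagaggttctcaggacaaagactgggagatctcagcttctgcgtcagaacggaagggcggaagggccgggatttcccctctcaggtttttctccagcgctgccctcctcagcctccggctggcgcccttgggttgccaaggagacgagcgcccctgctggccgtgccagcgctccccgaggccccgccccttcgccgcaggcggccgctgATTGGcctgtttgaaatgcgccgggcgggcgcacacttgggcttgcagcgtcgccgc
In the Gbp2 window the capitals mark an AP-1 match at -102 and an interferon element at -59. In the Mgst2 window they mark a CCAAT box at -62, an AP-1 match at -52, overlapping TATAAA matches on the 2 strands at -34 and -32, and a GAS match (TTCNNNGAA) at 39. Psmb9 and Kif23 each held a CCAAT box on the opposite strand, at -8 and -7.

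Among all 116 member windows, the interferon element (GAAA, any 2 bases, then GAAA) stood in 5.17%, against 2.69% of 5918 windows of tested genes and 3.44% of all 32851 windows. Its 6 genes were Brca2, Cyp4v3, Gbp2, Snx10, Sqor and Xrcc1. AP-1 (TGANTCA) stood in 6.03% of member windows against 5.47% of tested windows, and the cyclic AMP response element core TGACGTC in 5.17% against 5.37%. FoxO (GTAAACA) was found in 3.45% against 2.48%, the E-box CACGTG in 6.03% against 10.3%, and GAS in 6.90% against 6.42%. The CCAAT box stood in 43.1% against 37.4%, TATAAA in 10.3% against 7.64%, and NF-kB (GGGA, any base, then TTTCC) in 1 window, of Mdfic, or 0.862% against 0.490%. All motifs were searched on both strands, windows of 1 gene can overlap, and a match is only a match of letters.

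The 102 members were defined by a moderate peak. The median 6 h excess over 0 h was 0.82 (range 0.51 to 2.39) and over the 18 to 30 h average 0.73 (range 0.50 to 3.15). Only 29 members exceeded 0 h by 1 or more, 22 exceeded the later average by 1 or more, and 7 did both. The 6 h mean was the highest of the 9 time means in 98 members. The exceptions were Pfkm (highest at 12 h), Xrcc1 and 1 unnamed probe set (36 h) and Scx (48 h).

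The medians of the members' differences from 0 h were 0.82 at 6 h, 0.43 at 12 h, and then 0.05, 0.08 and 0.05 at 18, 24 and 30 h and 0.02, -0.05 and -0.02 at 36, 42 and 48 h. At 12 h, which the choice did not use, the median lay between those of 6 h and 18 h. Over the same times the median level of all probe sets stayed between 7.53 and 7.59.

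**Figure D1:**
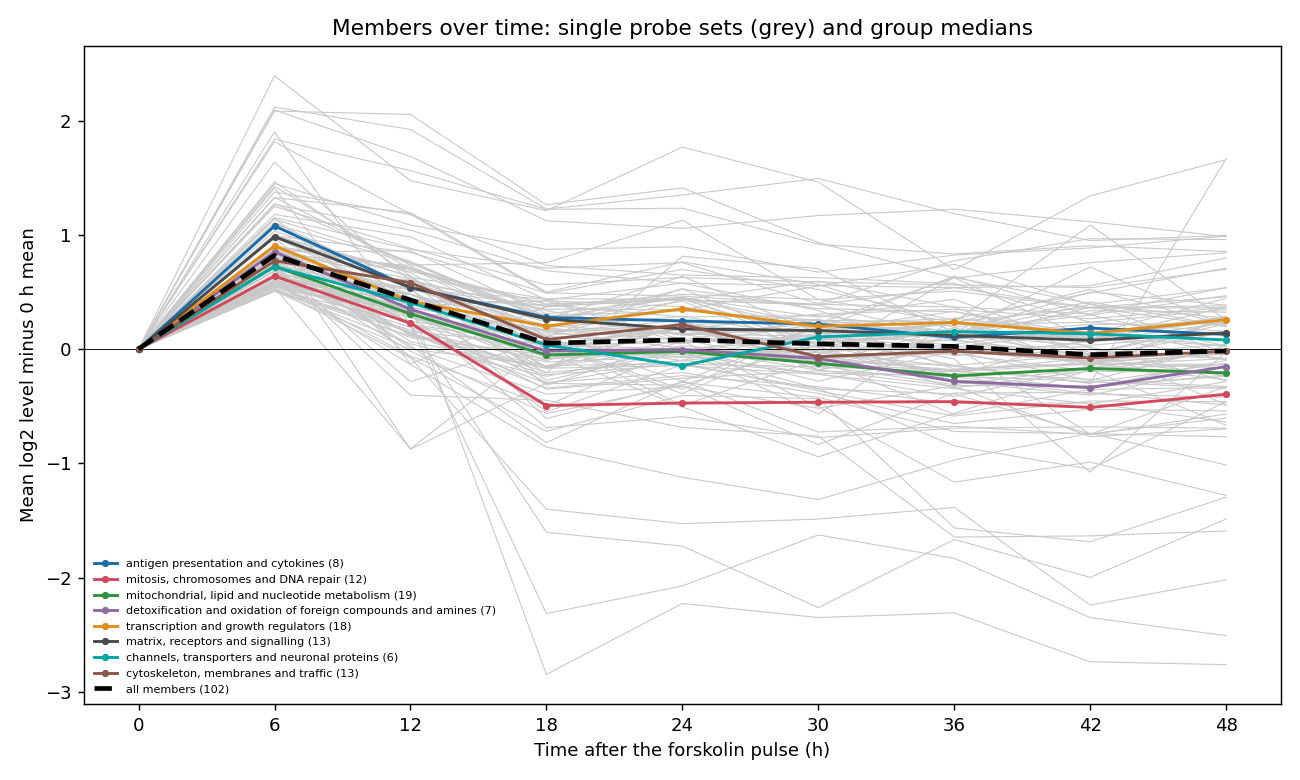
Mean log2 level minus the 0 h mean (vertical) against hours after the pulse (horizontal), for each of the 102 members (grey) and as the median of each role group (colours) and of all members (dashed). Most lines lie near their starting level from 18 h on, with a median within 0.08 of it, while mitotic genes make up the lowest lines.

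The share of the 6 h excess (over the 18 to 30 h average) still present at 12 h had a median of 49.4%. It was below 25% in 20 members, between 25% and 75% in 68 and at least 75% in 14. In 6 members the 12 h mean lay below the 18 to 30 h average. Among the members with the largest share left were Pfkm (102%), Kif20a (94.6%), Grik2 (89.4%), Wdr45 (86.3%) and Tmem176a (82.3%). Those below the later average at 12 h included Spib (-132%), Rfx2 (-83.4%), Nsmf (-57.5%) and Abcb8 (-13.1%).

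Members near the limits of the rule were close to genes left out by it. At the level limit, Xrcc1 (7.53) and Acsf3 (7.60) stood inside and Fbxl15 (7.49), Fnbp1 (7.44) and Gbp3 (7.42) outside. At the limit against 0 h, Klf5, Mab21l2 and Ppp3ca (each 0.51) stood inside and Rnft1 (0.49), a second Kif20a probe set (0.49) and Ttk (0.48) outside. At the limit against the 18 to 30 h average, Ccdc28b (0.50), Mab21l2 and Inpp5k (both 0.51) stood inside and Bbs9 (0.499) and Spata6 (0.498) outside.

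The independent question was whether the members were still higher at 12 h than late in the course. The 12 h mean was compared with the mean of the 36, 42 and 48 h arrays (called the late mean), for all 7453 probe sets above the 40th percentile of level, which included 95 members. Of these, 88 lay above 0, or 92.6%, against 49.3% of all tested probe sets, and their median difference was 0.43 against -0.01 for all. By limma with Benjamini-Hochberg adjustment over all tested probe sets, 15 members (15.8%) were higher at 12 h at an adjusted p below 0.05, where 1.41% of all probe sets were, and 1 was lower (Spib), where 1.14% were. With the experiment as a block, 39 members were higher and 1 lower, against 6.47% and 6.48% of all.

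The call of single members at 12 h rested on 3 arrays and on which experiments were kept. Without experiment 1, 22 members were called, of 378 probe sets in all, and without experiment 2 there were 2 (Mmp9 and Pfkm), of 5 in all. Without experiment 3 no member and 1 probe set was called, with 25 of 95 members and 565 of 7453 probe sets below an unadjusted p of 0.05. With the 12 h array of experiment 2 alone, 4 members were called, of 21 probe sets. These were Capg, Ptgr1, Tmem176a and Pck2, at adjusted p = 0.00914, 0.0188, 0.025 and 0.047, and the other 12 calls were lost. The 12 h value lay above the late mean of its own experiment in 74, 93 and 95 of 102 members in experiments 1, 2 and 3, and in all 3 for 68. These counts include the 7 untested members, and the matching shares of all probe sets were not counted. The median difference within experiment 1 was 0.27, against 0.60 in experiment 2 and 0.57 in experiment 3. Of the 16 members called, 15 had 1 sign in all 3 experiments, the exception being Pck2.

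**Figure D2:**
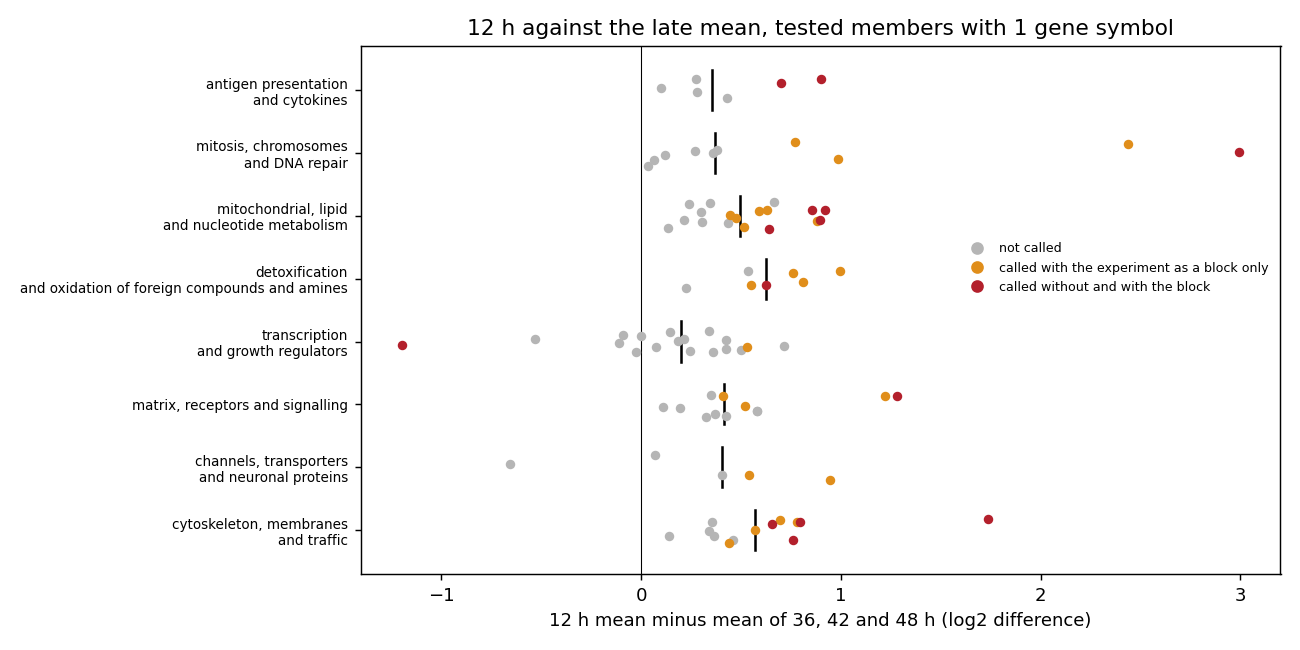
The 12 h mean minus the late mean as a log2 difference (horizontal) for each tested member with 1 symbol, by role group (vertical). Red points passed the adjusted p with and without the experiment as a block, orange points only with it, and black bars are group medians, the lowest being 0.20 for transcription and growth regulators.

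No member passed the test of 48 h against 36 h. Among all 7453 probe sets limma called 0 (0%), with 152 below an unadjusted p of 0.05, and among the 95 members 0, with 1 below it. With the experiment as a block 0 were called as well, with 543 and 7 below an unadjusted p of 0.05. The members' differences ran from -0.92 (Tbx2) to 1.81 (Scx).

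The members were sorted by known role into 8 groups after their identity was known, so the groups carry no test. Several members are named for their role, having been chosen after their values were seen. The values that follow are in the order of experiments 1, 2 and 3.

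Antigen presentation and cytokine genes made up 8 members, with a median 6 h excess of 1.08 over 0 h. Gbp2 stood at 7.98, 8.24 and 8.37 at 0 h and at 9.79, 10.14 and 10.17 at 6 h. At 12 h it read 9.26, 9.89 and 10.12, and the 9 late arrays ran from 8.93 over a median of 9.04 to 9.28. The 12 h value of experiment 1 thus lay within the late range, while the other two lay above all of it. Gbp2 was higher at 12 h than late by 0.70 ± 0.16 (SE, adjusted p = 0.0201, and 0.136 with the single 12 h array), and its late mean stayed 0.86 above 0 h.

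Psmb9 stood at 5.49, 7.09 and 7.08 at 0 h, 7.98, 8.29 and 7.78 at 6 h and 6.19, 7.30 and 8.09 at 12 h. All 6 h values lay above all 0 h values, and experiment 1 was the lowest at 0 and 12 h. It was too dim on average to be tested, as were the members Retn, Aspm, Kif23, Acsf3, Cradd and Kcnab2 described below. Tap2, a subunit of the transporter that carries peptides into the endoplasmic reticulum, read 8.26, 8.46 and 8.22 at 0 h, 9.19, 9.35 and 9.12 at 6 h and 8.59, 8.82 and 8.85 at 12 h. Only 19.8% of the Tap2 excess was left at 12 h.

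A pair of class I-like presenting molecules was in the set. Cd1d1, which presents lipids to natural killer T cells, stood at 8.18, 7.57 and 8.17 at 0 h and at 9.18, 9.15 and 9.13 at 6 h, so its 6 h values were nearly the same in all experiments. At 12 h Cd1d1 was still at 8.79, 8.94 and 9.15, higher than the late mean by 0.90 ± 0.20 (adjusted p = 0.0157, and 0.286 with the single 12 h array). Mr1, which presents vitamin B metabolites to mucosal T cells, read 7.69, 7.65 and 7.57 at 0 h, 8.65, 8.93 and 9.07 at 6 h and 8.62, 8.29 and 8.64 at 12 h. The 12 h difference of Mr1 from the late mean, 0.28 ± 0.21 (adjusted p = 0.601), did not pass.

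Il18, a cytokine of the interleukin-1 family, stood at 7.89, 7.40 and 8.09 at 0 h and 8.87, 8.67 and 8.23 at 6 h. The Il18 excess in experiment 3 was 0.13, against 0.98 and 1.27 in experiments 1 and 2. Retn, the hormone resistin of mouse fat cells, read 6.58, 7.24 and 7.27 at 0 h, 7.66, 8.09 and 8.27 at 6 h and 5.54, 7.38 and 7.96 at 12 h. Its late arrays, from 5.20 to 6.45, lay below all its 0 h arrays, and its late mean differed from 0 h by -1.52.

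Of the 33 listed interferon-response genes on the array, Gbp2 and Psmb9 were members. Among the 19 tested genes of that list, 2 were higher at 12 h (Gbp2 and H2-K1, an MHC class I heavy chain) and 1 lower (Ifi202b), where 1.58% and 1.12% of 5644 genes were. With the experiment as a block the list counts became 5 and 2, where 7.18% and 6.59% of all genes were called. The list median was 0.04 against -0.004 for all genes. H2-K1 read 11.12, 11.37 and 11.29 as means at 0, 6 and 12 h and differed from the late mean by 0.73 ± 0.15 (adjusted p = 0.00998). Ifi202b differed by -1.17 ± 0.24 (adjusted p = 0.00945). Of the 19 tested genes, 10 lay above 0.

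Mitosis, chromosome and repair genes made up 12 members, which had the lowest median 6 h excess over 0 h among the 8 groups (0.64) and the highest over the 18 to 30 h average (1.04). From 18 to 48 h the medians of this group against 0 h ran from -0.51 to -0.40. In RNA of whole cultures, fewer dividing cells and less of an RNA in each cell cannot be told apart. Kif20a, a kinesin needed for cytokinesis, stood at 8.28, 9.16 and 8.51 at 0 h, 8.44, 9.87 and 9.29 at 6 h and 8.47, 9.57 and 9.07 at 12 h. The late arrays of Kif20a ran from 4.87 over a median of 5.02 to 7.84, so none reached any of the 12 h values. It was higher at 12 h by 2.99 ± 0.72 (adjusted p = 0.0232, and 0.242 with the single 12 h array), the largest difference among the members called. In experiment 1 the 6 h excess of Kif20a over 0 h was only 0.16, and its level through the first 12 h was nearly flat. The probe set belongs to a class that can share probes with related sequences, and a second Kif20a probe set had 6 h excesses of 0.49 over 0 h and 1.97 over the 18 to 30 h average.

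Nusap1, a microtubule-bundling protein of the spindle, read 7.83, 8.55 and 9.40 at 0 h, 9.31, 9.89 and 10.02 at 6 h and 7.80, 9.35 and 9.27 at 12 h. Its late arrays ran from 4.62 over 5.92 to 8.20. The difference of Nusap1 at 12 h was 2.44 ± 0.70, with an adjusted p of 0.0666 and of 0.00209 with the experiment as a block. Aspm, of the spindle pole, read 4.71, 7.62 and 7.85 at 0 h, 6.78, 7.81 and 8.31 at 6 h and 5.02, 7.80 and 7.99 at 12 h. In experiment 1 the 0 h value of Aspm lay within the range of its later arrays, while experiments 2 and 3 held it above 7.5 until 12 h.

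Kif23, a kinesin of the central spindle, stood at 7.63, 7.69 and 7.94 at 0 h, 7.95, 8.44 and 8.44 at 6 h and 7.65, 7.63 and 7.76 at 12 h, and its late arrays ran from 4.35 to 7.79. Ect2, a protein needed for cytokinesis, read 7.69, 8.03 and 7.79 at 0 h and 7.98, 8.80 and 8.53 at 6 h. Pttg1 (securin, which holds back the protease that cuts cohesin) read 9.53, 10.54 and 10.53 at 0 h, 10.10, 11.18 and 10.94 at 6 h and 9.83, 10.92 and 10.74 at 12 h. Within each experiment the 3 times of Pttg1 kept the order of 0 h below 12 h below 6 h. The Pttg1 probe set can share probes with other transcripts. A second, dimmer Pttg1 probe set did not rise at 6 h, with -0.09 against 0 h and 1.00 over the 18 to 30 h average. With the block Ect2 (0.77 ± 0.42 without it) and Pttg1 (0.99 ± 0.35) were also called, at adjusted p = 0.0475 and 0.000598, and without it at 0.425 and 0.147.

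The remaining members of this group ended within 0.5 of 0 h. Rad21, a cohesin subunit, read 11.55, 11.60 and 11.57 at 0 h and 12.22, 12.50 and 12.15 at 6 h, and at 12 h was already at 11.75, 11.67 and 12.03. Brca2, of homologous recombination, read 6.76, 7.48 and 7.76 at 0 h and 7.80, 8.09 and 8.13 at 6 h. Ccng2, cyclin G2, which is linked to cell cycle arrest, read 9.54, 10.17 and 10.02 at 0 h, 10.93, 10.85 and 10.50 at 6 h and 10.59, 10.62 and 10.36 at 12 h. The late Ccng2 arrays ran from 9.51 to 11.10, with experiment 1 the highest at each late time. The others were Tmpo, of the nuclear lamina, Ctc1, of telomere maintenance, and Xrcc1, of single-strand break repair. Xrcc1 had a second probe set with 0.03 over 0 h and -0.28 against the 18 to 30 h average at 6 h, that is, without a peak.

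Of the 38 listed G2 and mitosis genes on the array, Kif20a, Kif23 and Ect2 were members. Among 30 tested, 28 lay above 0 at 12 h against the late mean, with a median of 0.87 against -0.004 for all genes. The calls were 3 higher (Kif20a, Top2a and Smc4) and 0 lower, where 1.58% and 1.12% of 5644 genes were. With the block they were 19 higher and 0 lower, where 7.18% and 6.59% of all genes were. The median 6 h excess of the list over 0 h was -0.01 and over the 18 to 30 h average 1.57. As a median the list thus stood at about the same level at 0 h as at 6 h, with genes on both sides. The highest mean was at 6 h in 18 of the 38 genes, and in 1100 of all 8251 genes. Cdc20, which activates the anaphase-promoting complex, was higher at 6 h than at 0 h (means of 10.81, 11.05, 10.70 and 8.95 at 0, 6, 12 and 18 h). Cyclin A2 was lower at 6 h (Ccna2, 10.26, 10.09, 9.89 and 8.92).

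**Figure D3:**
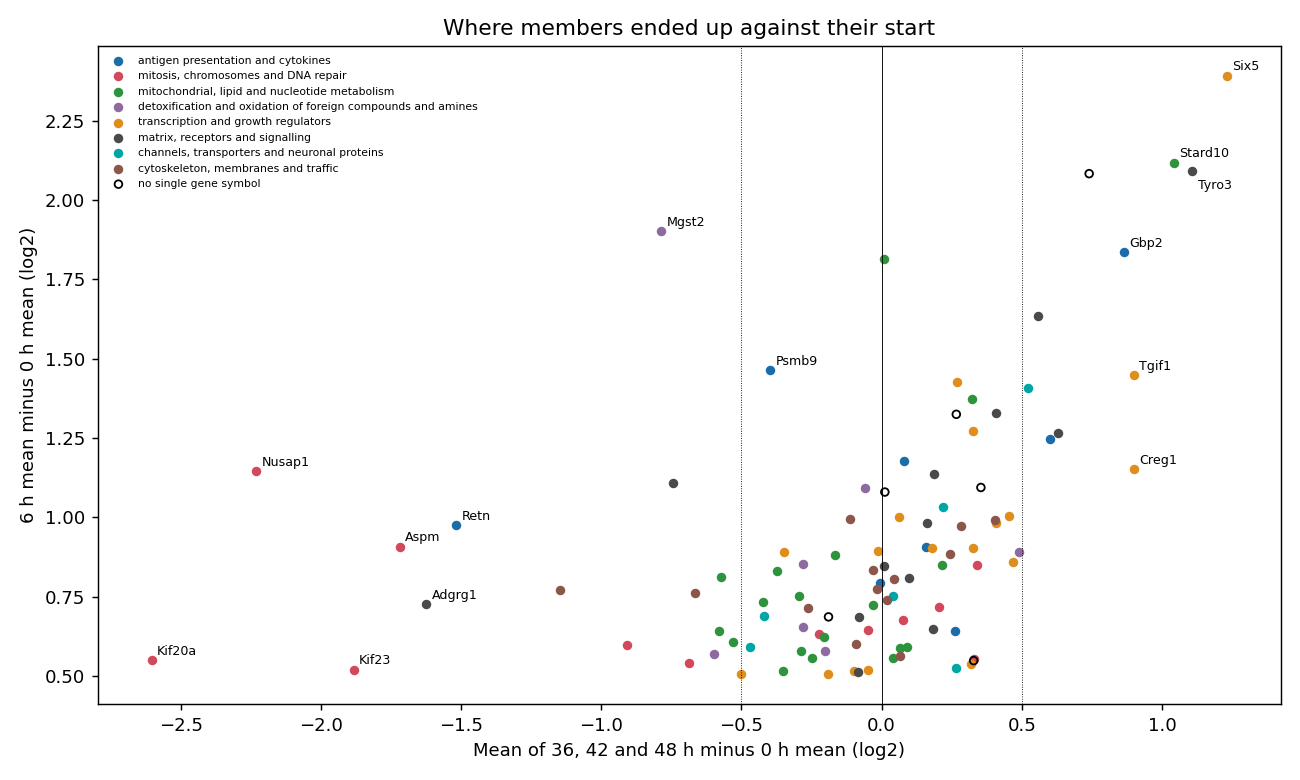
The 6 h mean minus the 0 h mean (vertical) against the late mean minus the 0 h mean (horizontal), both as log2 differences, for the 102 members by role group, with dotted lines at 0.5 below and above. Kif20a, Nusap1, Kif23 and Aspm lie between -2.60 and -1.72 on the horizontal axis and Six5 and Tyro3 at 1.23 and 1.11; both axes use the same 0 h arrays, so their relation is not a result.

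Against 0 h, the late mean was within 0.5 in 74 members, lower by 0.5 or more in 17 and higher by 0.5 or more in 11. Since the 0 h value entered the choice of members, these counts are a description. The lowest were Kif20a (-2.60), Nusap1 (-2.23), Kif23 (-1.88), Aspm (-1.72), Adgrg1 (-1.62), Retn (-1.52) and Tmem176a (-1.15). The highest were Six5 (1.23), Tyro3 (1.11), Stard10 (1.04), Creg1 and Tgif1 (both 0.90) and Gbp2 (0.86).

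The 19 genes of mitochondrial, lipid and nucleotide metabolism had a median 6 h excess of 0.72 over 0 h. Of 18 tested, all lay above 0 at 12 h against the late mean, 4 were called higher, and 10 with the block. Among all 95 tested members 92.6% lay above 0, 15.8% were called higher and 41.1% with the block. The shares over all tested probe sets were 49.3%, 1.41% and 6.47%. Echs1, the enoyl-CoA hydratase of mitochondrial fatty acid oxidation, read 9.51, 9.73 and 9.51 at 0 h, 10.68, 10.00 and 10.56 at 6 h and 9.62, 9.66 and 9.66 at 12 h. Only 24.0% of the Echs1 excess was left at 12 h, and the peak was smallest in experiment 2. Acot1, a cytosolic acyl-CoA thioesterase, read 8.80, 9.28 and 9.08 at 0 h and 9.57, 9.60 and 9.53 at 6 h. Decr1, the dienoyl-CoA reductase needed for unsaturated fatty acids, read 7.48, 6.88 and 7.04 at 0 h and 8.07, 7.36 and 7.64 at 6 h.

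The list of fatty acid oxidation and PPAR target genes had the largest share of members, 3 of 30 genes on the array (10.0%, against 1.15% of all genes). The detoxification list and the G2 and mitosis list also held 3 members each (8.33% and 7.89%). Among the 24 tested genes of the fatty acid oxidation and PPAR list 22 lay above 0 at 12 h against the late mean, with a median of 0.27. The call was 1 higher (Ech1, the dienoyl-CoA isomerase) and 0 lower, where 1.58% and 1.12% of all genes were. With the block the counts were 6 and 1, where 7.18% and 6.59% of all genes were. Ech1 had means of 11.07, 11.86 and 11.94 at 0, 6 and 12 h and was higher at 12 h by 0.44 ± 0.09 (adjusted p = 0.00988). Cpt1a, the carnitine acyltransferase that admits fatty acids to the mitochondrion, had means of 11.98, 12.76 and 12.65, and its difference of 0.46 ± 0.18 passed only with the block (adjusted p = 0.201 without and 0.00872 with it). The gene with the opposite call under the block was Lpl, lipoprotein lipase.

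Further metabolic members were called at 12 h. Pfkm, the muscle form of phosphofructokinase, read 10.14, 10.24 and 10.23 at 0 h, 11.11, 10.91 and 11.13 at 6 h and 11.06, 11.01 and 11.10 at 12 h, against late arrays from 10.23 to 10.69. All 6 values at 6 and 12 h lay above all 9 late ones, and Pfkm was higher at 12 h by 0.64 ± 0.10 (adjusted p = 0.000994, and 0.136 with the single 12 h array). Ak1, a cytosolic adenylate kinase, read 9.46, 9.96 and 9.85 at 0 h, 10.45, 10.72 and 10.53 at 6 h and 9.73, 10.27 and 10.23 at 12 h, and was higher at 12 h by 0.89 ± 0.16 (adjusted p = 0.00400, and 0.0675 with the single 12 h array). Chchd5, a mitochondrial protein, read 7.26, 7.44 and 8.03 at 0 h, 8.82, 8.87 and 9.15 at 6 h and 8.37, 8.85 and 9.04 at 12 h, and was higher by 0.86 ± 0.19 (adjusted p = 0.0157, and 0.196 with the single 12 h array).

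Pck2, the mitochondrial phosphoenolpyruvate carboxykinase, read 9.0, 9.47 and 9.73 at 0 h, 9.67, 10.21 and 10.25 at 6 h and 9.0, 10.20 and 10.02 at 12 h. It was higher at 12 h by 0.92 ± 0.22 (adjusted p = 0.0232), but in experiment 1 its 12 h value differed from that experiment's late mean by -0.03. Stard10, a lipid transfer protein, read 6.94, 6.58 and 8.19 at 0 h and 9.41, 9.24 and 9.41 at 6 h. Its excess over 0 h was 2.12, but that over the 18 to 30 h average was 0.76, close to the median of the set. At 12 h it was 8.87, 9.16 and 9.44, 0.88 ± 0.25 above the late mean (adjusted p = 0.0606 without and 0.00243 with the block).

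Ctps2, a CTP synthase, read 10.13, 10.27 and 10.59 at 0 h, 11.02, 11.29 and 11.31 at 6 h and 10.29, 10.76 and 10.76 at 12 h. Rfk, the riboflavin kinase, read 10.26, 10.65 and 10.58 at 0 h and 10.94, 11.35 and 10.92 at 6 h, and a pair of other Rfk probe sets just missed the rule with an excess of 0.48 over 0 h each. Acsf3, a mitochondrial acyl-CoA synthetase, read 5.26, 5.63 and 6.48 at 0 h and 7.16, 7.91 and 7.74 at 6 h. This dim Acsf3 probe set had 2 companions, of which the brighter had an excess of only 0.33 over 0 h and 0.18 over the later average. The size of the Acsf3 peak therefore differed between probe sets of the gene.

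Abcb8, a transporter of the inner mitochondrial membrane, shows how experiment 1 could depart. It read 7.11, 9.01 and 8.63 at 0 h, 8.85, 9.18 and 8.92 at 6 h and 6.05, 8.80 and 9.05 at 12 h. The 6 h excess over 0 h was 1.74 in experiment 1 against 0.17 and 0.30 in experiments 2 and 3. Tspo, the translocator protein of the outer mitochondrial membrane, read 12.12, 13.04 and 12.18 at 0 h, 13.15, 13.67 and 12.69 at 6 h and 12.86, 13.42 and 12.86 at 12 h.

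The 7 detoxification and oxidase genes all lay above 0 at 12 h against the late mean, 1 was called higher and 5 with the block. Of all tested members 92.6% lay above 0, and of all tested probe sets 49.3%. Called higher were 15.8% of tested members and 1.41% of all probe sets, or 41.1% and 6.47% with the block. Mgst2 had the largest smaller margin of all members. It read 7.39, 7.91 and 8.62 at 0 h, 9.72, 9.78 and 10.13 at 6 h and 6.75, 9.0 and 8.81 at 12 h, against late arrays from 6.81 over 7.14 to 7.91. In experiment 1 nothing was left of the Mgst2 peak at 12 h, while the other experiments lay above all late arrays. The difference was 1.00 ± 0.39 (adjusted p = 0.217 without and 0.0233 with the block). A second, dimmer Mgst2 probe set showed no peak, with -0.72 against 0 h and -0.34 against the 18 to 30 h average.

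Ptgr1, the prostaglandin reductase, read 11.03, 11.05 and 11.17 at 0 h, 11.62, 11.87 and 11.72 at 6 h and 11.26, 11.59 and 11.44 at 12 h. The late Ptgr1 arrays ended at 11.05, below every 12 h array, and the difference was 0.63 ± 0.10 (adjusted p = 0.000994). Cyp4v3, a fatty acid hydroxylase, read 8.07, 7.56 and 8.11 at 0 h and 9.76, 8.51 and 8.74 at 6 h. Cyp1b1, a cytochrome P450 of foreign compounds and steroids, read 9.58, 8.42 and 9.49 at 0 h, 10.02, 9.72 and 10.43 at 6 h and 10.09, 9.17 and 10.38 at 12 h. Gstm2, a cytosolic glutathione transferase, read 11.02, 10.32 and 9.61 at 0 h and 11.14, 10.80 and 10.72 at 6 h, so that in experiment 1 the peak was only 0.13. A second Gstm2 probe set had no peak, with -0.55 against 0 h and -0.16 against the later average. The membrane amine oxidase Aoc3 and the efflux pump Abcg2 passed only with the block, at 0.76 ± 0.26 (adjusted p = 0.139 without and 0.00121 with it) and 0.55 ± 0.21 (0.184 and 0.0447).

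The wider detoxification list holds targets of the stress factor NRF2. Of 36 on the array 3 were members (Mgst2, Gstm2 and Cyp1b1). Over all genes 1.58% were called higher and 1.12% lower at 12 h, or 7.18% and 6.59% with the block. In this list, of 32 tested 0 were higher and 2 lower at 12 h, or 2 and 4 with the block, with a median of 0.02. The lower ones were Txnrd1, thioredoxin reductase (-0.56 ± 0.14, adjusted p = 0.0305), and Mt2, a metallothionein (-0.49 ± 0.11, adjusted p = 0.0166). Txnrd1 had means of 10.79 at 0 h and 9.41 at 6 h, the opposite course to Mgst2.

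The 17 transcription and growth regulators, on 18 probe sets, kept the least of their peak. A median of 29.4% was left at 12 h, and 13 of 18 lay above 0 against the late mean. Of all tested members 92.6% did, and of all tested probe sets 49.3%. In this group 0 were called higher and 1 lower, and with the block 1 and 1. Over all probe sets 1.41% were higher and 1.14% lower, or 6.47% and 6.48% with the block. Klf10, a zinc finger repressor induced by TGF-β, was represented by both of its member probe sets. They read 7.71, 8.25 and 8.50 and 8.25, 8.84 and 8.94 at 0 h, and 9.02, 9.74 and 9.96 and 9.56, 9.95 and 10.32 at 6 h. At 12 h they read 8.25, 9.0 and 9.28 and 8.58, 9.79 and 9.91. Both probe sets were lowest in experiment 1 at each of these times, and both differed from the late mean by 0.43 (SE 0.24 and 0.30, adjusted p = 0.451 and 0.574).

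Tgif1, a corepressor of TGF-β signalling, read 8.85, 9.24 and 9.74 at 0 h, 10.78, 10.53 and 10.87 at 6 h and 10.00, 10.53 and 10.56 at 12 h. Its late arrays, from 9.83 to 10.79, lay above all 0 h arrays. Of 31 listed TGF-β, BMP and YAP targets on the array it was the only member. Among 20 tested genes of that list 1 was higher and 0 lower at 12 h, or 2 and 2 with the block, with a median of -0.09. The shares over all genes were 1.58% and 1.12%, or 7.18% and 6.59% with the block.

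Six5, a homeobox factor, had the largest 6 h excess over 0 h of all members, 2.39. It read 5.62, 6.46 and 8.07 at 0 h, 8.83, 8.81 and 9.68 at 6 h and 7.88, 7.97 and 8.72 at 12 h, and its late arrays ran from 6.30 to 8.99. The 0 h arrays of Six5 were spread more widely than those of any time that followed up to 30 h, and none of its 6 h excess over the later average was left at 12 h. Klf5, another Krüppel-like factor, read 7.96, 8.21 and 8.72 at 0 h and 8.68, 8.64 and 9.08 at 6 h.

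Spib, an ETS factor of B cells and plasmacytoid dendritic cells, was the only member called lower at 12 h. It read 7.44, 6.93 and 7.09 at 0 h, 7.57, 7.63 and 7.88 at 6 h and 6.15, 6.85 and 5.84 at 12 h. The 9 late arrays ran from 6.89 to 7.89, all above the 12 h arrays, with a difference of -1.19 ± 0.28 (adjusted p = 0.0203). Its probe set can share probes with other transcripts, and Spib was not called when any 1 experiment was left out, nor with the single 12 h array (adjusted p = 0.640). A second, dimmer Spib probe set had neither peak nor dip, with -0.03 against 0 h, -0.06 against the 18 to 30 h average, and means of 5.99 at 12 h and 5.82 late. Rfx2, a factor of ciliary genes, read 6.99, 6.35 and 7.38 at 0 h, 7.49, 8.23 and 7.68 at 6 h and 6.28, 6.19 and 5.61 at 12 h, with a difference of -0.53 ± 0.44 (adjusted p = 0.656). Both dipped below 0 h at 12 h in all experiments.

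No listed cyclic AMP or immediate early gene was a member, of 31 on the array. Of 28 tested, 0 were higher at 12 h and 1 was lower (Cebpd, -0.55 ± 0.15, adjusted p = 0.0477), where 1.58% and 1.12% of all genes were. With the block the counts were 0 and 11, where 7.18% and 6.59% of all genes were. The list median was -0.44, and the list's median 6 h difference from 0 h was -0.64. Fosl1, a partner of Jun, had means of 9.96 at 0 h and 6.98 at 6 h, and the phosphatase Dusp1 of 10.05 and 8.63. The 6 h means of both lay below their 0 h means, opposite to the members.

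**Figure D4:**
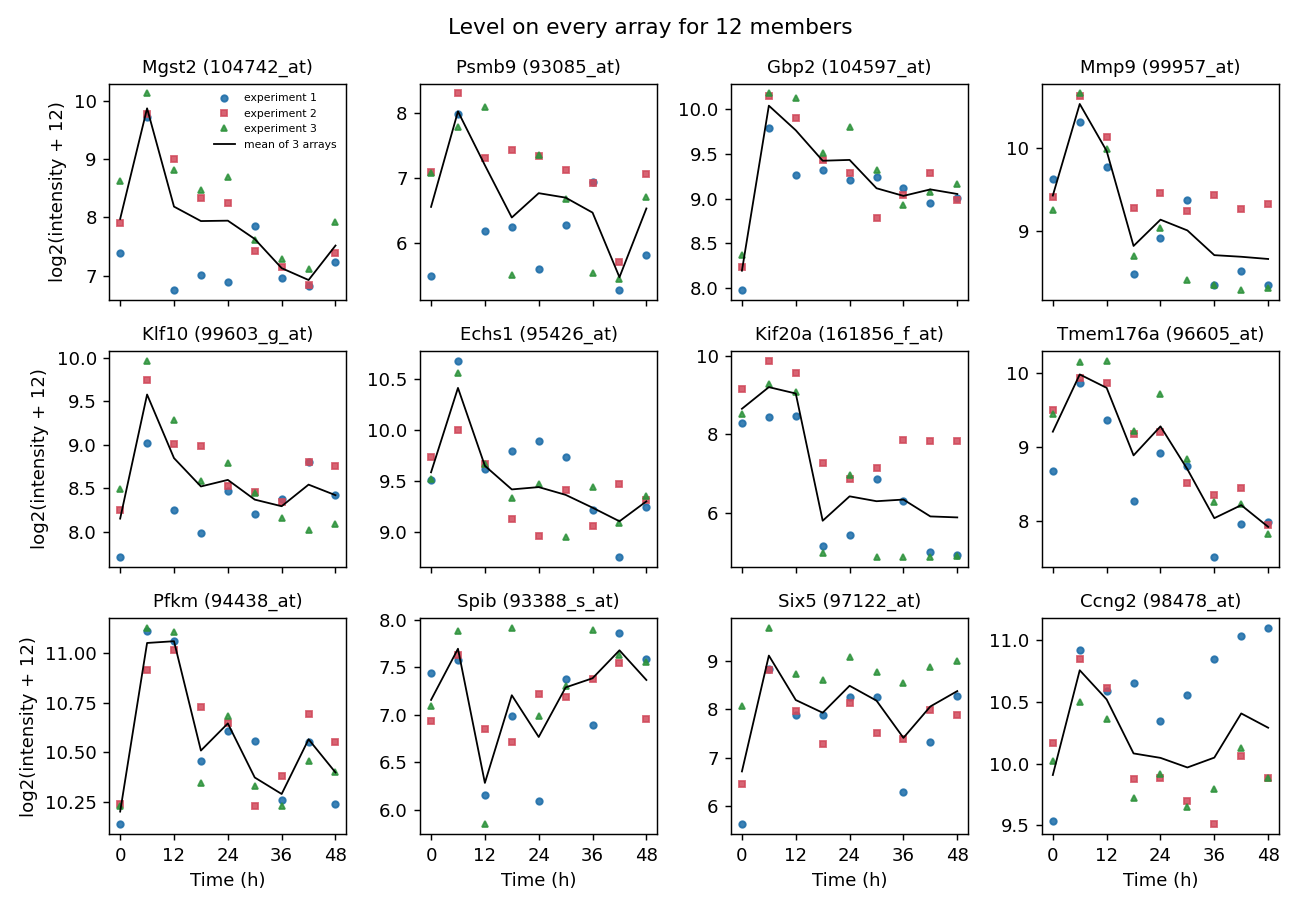
Level as log2(intensity + 12) (vertical) on every array against hours after the pulse (horizontal) for 12 members, with points for the experiments and a line for the mean of 3 arrays. Gbp2 and Pfkm stay high to 12 h, Echs1 and Mgst2 do not, Spib dips to a mean of 6.28 at 12 h, and experiment 1 lies below the others at 12 h for Mgst2, Psmb9 and Klf10.

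Matrix, receptor and signalling genes made up 13 members, of which 12 were tested and all lay above 0 at 12 h. Of all tested members 92.6% did, and of all tested probe sets 49.3%. In the group 1 was called higher, or 4 with the block, where 1.41% and 6.47% of all probe sets were. Mmp9, the gelatinase B that cuts basement membrane collagen, was the one called. It read 9.62, 9.42 and 9.25 at 0 h, 10.32, 10.63 and 10.66 at 6 h and 9.77, 10.14 and 9.99 at 12 h, against late arrays from 8.29 over 8.35 to 9.43. All 12 h arrays lay above all late ones, by a mean of 1.28 ± 0.26 (adjusted p = 0.00958, and 0.161 with the single 12 h array). Of 49 listed matrix genes on the array Mmp9 was the only member. In that list, of 44 tested 3 were higher (Mmp9, Lox and Tnc) and 1 lower (Dpt), or 6 and 5 with the block, with a median of -0.05. The shares over all genes were 1.58% and 1.12%, or 7.18% and 6.59% with the block.

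Tyro3, a receptor tyrosine kinase that binds Gas6, read 5.50, 7.69 and 7.01 at 0 h, 8.44, 8.78 and 9.25 at 6 h and 7.93, 8.75 and 8.57 at 12 h. Its probe set can share probes with other transcripts. A second, dimmer Tyro3 probe set had no peak, with -0.34 against 0 h and -0.20 against the 18 to 30 h average. The late mean of that second probe set was 0.27 above 0 h. Cradd, a death domain adaptor, read 5.29, 5.72 and 7.08 at 0 h and 7.38, 7.83 and 7.78 at 6 h. Of the excess of this untested Cradd probe set 14.5% was left at 12 h. A second, brighter Cradd probe set had 6 h excesses of 0.65 over 0 h and 0.32 over the 18 to 30 h average. Of the latter excess 81.9% was left at 12 h, so the course after 6 h differed between the probe sets. Plgrkt, a plasminogen receptor, read 10.28, 9.89 and 10.24 at 0 h, 10.83, 10.78 and 11.32 at 6 h and 10.27, 9.97 and 10.53 at 12 h, so at 12 h it was near its 0 h value in every experiment.

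Adgrg1, an adhesion receptor coupled to G proteins, read 7.60, 8.21 and 8.57 at 0 h, 8.70, 8.69 and 9.18 at 6 h and 7.11, 7.04 and 9.03 at 12 h. Only the 12 h array of experiment 3 stayed near its 6 h value, and the difference of 1.22 ± 0.59 passed only with the block (adjusted p = 0.342 without and 0.0452 with it). Itpr2, an inositol trisphosphate receptor of the endoplasmic reticulum, read 9.64, 9.0 and 9.74 at 0 h, 10.63, 10.68 and 10.86 at 6 h and 10.52, 10.53 and 10.45 at 12 h. The brightest other Itpr2 probe set had 0.75 over 0 h but only 0.22 over the 18 to 30 h average. Nid2, a basement membrane protein, read 10.37, 9.48 and 9.25 at 0 h and 11.01, 10.51 and 10.53 at 6 h. Dab2, an endocytic adaptor, read 8.34, 9.01 and 9.07 at 0 h and 9.45, 9.91 and 10.46 at 6 h. A pair of other Dab2 probe sets had excesses of 0.72 and 1.11 over 0 h but only 0.13 and 0.25 over the 18 to 30 h average.

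The calcium-dependent phosphatase subunit Ppp3ca (10.21, 9.82 and 10.62 at 0 h, 10.78, 10.64 and 10.75 at 6 h) and the inositol phosphatase Inpp5k (8.88, 9.48 and 9.20 at 0 h, 9.50, 9.98 and 10.03 at 6 h) entered near the limits. In experiment 3 the Ppp3ca values were 10.62 and 10.75. The other members here were Inha, the inhibin α chain, Rrad, a small GTPase, and Dgka, a diacylglycerol kinase, with 6 h excesses over 0 h of 1.33, 0.81 and 0.69.

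The 6 genes of channels, transporters and neuronal proteins included Nsmf, a synapse-to-nucleus messenger. It read 7.48, 6.36 and 5.15 at 0 h, 7.81, 7.81 and 7.59 at 6 h and 7.52, 5.72 and 5.35 at 12 h, so its 6 h arrays lay close together and those of 0 and 12 h did not. A second Nsmf probe set had no peak, with -0.27 against 0 h and -0.05 against the 18 to 30 h average. Grik2, a kainate receptor subunit, read 7.65, 7.04 and 7.78 at 0 h, 7.93, 8.03 and 8.28 at 6 h and 7.92, 7.91 and 8.06 at 12 h, and all its 12 h arrays lay above all its late arrays (up to 7.77). The Grik2 difference was 0.95 ± 0.28 (adjusted p = 0.0708 without and 0.00476 with the block). Slc6a9, a glycine transporter, read 9.01, 10.05 and 10.71 at 0 h and 10.34, 11.20 and 11.32 at 6 h. Glrb, a glycine receptor subunit, read 7.89, 7.90 and 7.71 at 0 h and 8.92, 8.33 and 8.51 at 6 h. Kcnab2 and Ndrg4 had 6 h excesses over 0 h of 0.69 and 0.52, and a second probe set of each had 0.05 and 0.04.

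Cytoskeletal, membrane and traffic genes made up 13 members and kept the most, with a median of 73.2% left at 12 h. All 13 lay above 0 against the late mean, as did 92.6% of all tested members and 49.3% of all tested probe sets. Of the 13, 4 were called higher and 8 with the block. The shares called higher were 15.8% and 41.1% of tested members, and 1.41% and 6.47% of all probe sets. Tmem176a, a membrane protein, read 8.68, 9.49 and 9.44 at 0 h, 9.86, 9.93 and 10.14 at 6 h and 9.36, 9.86 and 10.16 at 12 h. The late Tmem176a arrays ran from 7.51 over 7.99 to 8.44, below every earlier array up to 12 h, and the difference of 1.74 ± 0.23 had the lowest adjusted p of the members (0.000324). Capg, which caps actin filaments, read 10.36, 10.50 and 10.60 at 0 h, 11.16, 11.22 and 11.22 at 6 h and 10.73, 11.16 and 11.17 at 12 h, and was higher at 12 h by 0.80 ± 0.11 (adjusted p = 0.000458). A pair of dimmer Capg probe sets had no peak at 6 h, with -0.14 and 0.25 against 0 h and 0.115 and -0.15 against the 18 to 30 h average.

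Wdr45, of autophagosome formation, read 9.01, 9.02 and 8.98 at 0 h, 10.06, 9.83 and 9.61 at 6 h and 9.67, 9.69 and 9.84 at 12 h. It was higher at 12 h by 0.76 ± 0.20 (adjusted p = 0.0383, and 0.432 with the single 12 h array). Unc119, a carrier of lipid-modified proteins, read 8.83, 8.84 and 8.90 at 0 h, 9.62, 9.47 and 9.88 at 6 h and 9.22, 9.55 and 9.89 at 12 h, and was higher by 0.66 ± 0.15 (adjusted p = 0.0215, and 0.268 with the single 12 h array). In both genes the 3 experiments started within 0.1 of each other. Sun2, a nuclear envelope protein that links to the cytoskeleton, read 10.05, 9.59 and 10.57 at 0 h, 10.97, 10.74 and 11.49 at 6 h and 10.41, 10.62 and 11.19 at 12 h. The Sun2 difference of 0.78 ± 0.26 passed only with the block (adjusted p = 0.118 without and 0.000836 with it).

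Actn3, the α-actinin of fast muscle fibres, read 7.28, 6.45 and 7.07 at 0 h and 8.01, 7.92 and 7.77 at 6 h, and a second Actn3 probe set had 0.18 over 0 h and -0.12 against the later average. Ccdc28b read 7.80, 6.83 and 7.05 at 0 h and 7.96, 8.0 and 7.42 at 6 h, the smallest margin over the later average in the set. The rest were Snx10, Pgap2, Cavin2, Trim59, Lgals8 and Siae, with 6 h excesses over 0 h from 0.60 (Siae) to 0.99 (Snx10).

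The peak also had to be read against other probe sets for the same genes. For 27 member genes there were 36 other probe sets, of which 21 were higher at 6 h than both references. Of the 15 that reached a 6 h level of 7.5, 11 were. The share among all probe sets was not counted, and some of these probe sets can share probes with related sequences. The same arrays had entered the rule, so these counts are a description. The dimmer probe sets included a companion of Nusap1 with excesses of 0.82 and 1.84, while Tbx2, a T-box repressor, had a pair with -0.61 and -0.38 against 0 h. Of the 3 members with several gene symbols each, which are not named, 2 were called higher at 12 h, by 1.31 ± 0.27 (adjusted p = 0.00988, and 0.201 with the single 12 h array) and 0.93 ± 0.16 (adjusted p = 0.00292, and 0.106). The third, annotated with the same symbols as the second, differed by 0.71 ± 0.31. It passed only with the block (adjusted p = 0.286 without and 0.0456 with it).

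The other lists held few or no members. There was 1 each among 33 FoxO and p53 growth arrest genes (Ccng2) and 40 growth factors and receptors (Tyro3), and none among chemokines and NF-kB targets, cholesterol synthesis, core clock, S phase, glucose metabolism and hypoxia, lysosome and autophagy, and Wnt, Notch and Hedgehog genes. At 12 h against the late mean the FoxO and p53 list had 3 higher and 0 lower of 26 tested (Cdkn2c, Gadd45b and Gas2), while Ccng2 (0.27 ± 0.29, adjusted p = 0.752) did not pass. The lysosome list had 2 higher and 0 lower of 29 (Npc2 and Man2b1), and the clock list 1 and 1 of 19. Over all 5644 genes 1.58% were higher and 1.12% lower. With the block the counts were 5 and 2 for FoxO and p53, 6 and 0 for lysosome and 2 and 2 for clock. The shares over all genes were then 7.18% and 6.59%.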

How the data were processed

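The deposited table holds linear probe set intensity values, which the authors had scaled before deposit: each array's mean without the 2% at either end lay between 499.90 and 499.94. How probes were summarised is not stated in the labels, and detection calls were not used, so a low value could not be told from background. The table held 12488 probe sets, of which 66 controls were left out. Of the others 10833 had 1 gene symbol in the platform annotation, 396 several and 1193 none. Through gene identifiers 10817 matched RefSeq (GRCm38.p6), and 0 symbols changed.

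Values were used as log2(intensity + 12) without further normalization. Contrasts were fitted by limma 3.58.1 (R 4.3.3), with 1 fit of the 9 time means over all 27 arrays, eBayes with an intensity trend and Benjamini-Hochberg adjustment over 7453 probe sets at or above the 40th percentile of mean level, at an adjusted p of 0.05. The code was tested on simulated data. Values after ± are standard errors of that fit. Genes of a list were represented by their brightest probe set. The number of arrays limits the precision. Without the block, p-values measure the spread of arrays around the time means, which includes differences between the 3 experiments, and arrays are treated as independent. With the block, steady differences between experiments are taken out, and p-values measure the spread that remains.

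Arrays of the same experiment deviated together from the time means, with r across probe sets of 0.431 to 0.649, 0.346 to 0.594 and 0.135 to 0.480 over the 36 pairs of experiments 1, 2 and 3. The numbers therefore pair the arrays, and blocked values stand beside printed test results whose call they change. Some members described by their levels alone, such as Tspo, Nid2, Rfk and Cyp4v3, also passed only with the block. Other settings tried concerned scaling, pseudocount, filter, variance model, late times, 12 h arrays and the experiments kept.

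The members and lists were chosen with earlier results of these data known. The named genes were the 20 members with the largest lesser margin, the 6 largest calls in each direction, up to 4 members of each list, and those next to each limit. Other members named were chosen after their values were seen.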

Additional observations from a re-analysis of the deposited data

How the results depend on the processing

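At 12 h against the late mean, 190 probe sets and 16 members were called. With the experiment as a block the counts were 965 and 40, with the 12 h array of experiment 2 alone 21 and 4, with 36 h alone as the late level 15 and 6, and with 48 h alone 93 and 9. Leaving out 1 experiment at a time gave between 1 (without experiment 3) and 378 (without experiment 1) probe sets and between 0 (without experiment 3) and 22 (without experiment 1) members, with 5 and 2 without experiment 2. The cause was not tested, and fits that left out arrays or times rested on fewer arrays. A lone 12 h array is assumed to vary like the other groups, and its difference also holds any offset of experiment 2 from the other experiments. Scaling, pseudocount, filter and variance model left both counts within 1.5 times, and the 16 members kept their direction under every alternative in which they were tested. For 48 h against 36 h each alternative run gave 0. The set itself had 7 members at a margin of 1, and 159, 120 and 141 without experiments 1, 2 and 3, of which 85, 72 and 87 were among the 102. It had 100 after quantile normalization (92 shared), 118 after centring each array (102 shared), 88 and 111 with pseudocounts of 50 and 1 (78 and 100 shared) and 113 without the demand on each experiment.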
